A study of Homo sapiens with 6 samples.

Results

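The genes described here carry a cell from G1 into S phase and copy its DNA. They are 46 genes chosen by symbol from a list of cyclins and their kinases, E2F factors, origin licensing factors, fork proteins, enzymes of nucleotide supply and chromatin assembly factors, out of 34690 symbols on the arrays. All 46 symbols were found, and 40 passed a detection filter (detection p under 0.05 on at least 3 of 6 arrays) and were tested among 14641 symbols. The samples were labelled as SNU761, an established line from hepatocellular carcinoma. Control cells were given the vehicle DMSO for 24 h and treated cells sorafenib for 24 h, with 3 arrays per group numbered 1 to 3. Sorafenib is an inhibitor of RAF kinases and of receptor kinases such as those of VEGF. The labels write its dose as 3 mM, a unit that is uncertain because millimolar doses are unusual in culture. They do not say whether the replicates were separate cultures, so that p-values measure only the spread between these samples.

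In G1, D-type cyclins bind CDK4 or CDK6 and phosphorylate the retinoblastoma protein, which releases E2F factors. E2F1 and E2F2 then raise transcription of cyclin E, of the licensing factors and of the fork and nucleotide genes. Licensing loads the MCM helicase on origins in G1, and the fork proteins copy the DNA in S phase. CCND1 is a known target of signalling through RAF, MEK and ERK. Levels below are normalized log2 signals, and a difference is sorafenib minus control on that scale. A pair is the control and the sorafenib array of the same number, a value with ± is the mean and SD over the 3 pairs, and a level or signal is not compared between genes.

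E2F sites are the sequence feature that many of these genes share. Promoters of 38 of the 46 genes were matched in the RefSeq table (GRCh38.p14), each from 250 bases before to 50 after 1 start listed for the gene. For CCND3, ORC1L, CDC45L, RRM2 and UHRF1 that start lies away from the outer end of the gene. Words beyond these windows were not searched. CCND1, CCND2, CCNE2, CDK2, E2F8, MCM4, MCM5 and RPA2 had no entry. On both strands, the 4 E2F words TTTCCCGC, TTTCGCGC, TTTGGCGC and TTTGCCGC were searched. At least 1 of them stood in 19 of the 38 promoters (50%), against 3.31% of all 35116 promoters. By class, 3 of 7 promoters of cyclins, CDKs and E2F held one, 6 of 8 in origin licensing, 8 of 16 at the fork, 1 of 4 in nucleotide supply and 1 of 3 in chromatin assembly. Matches that overlapped on opposite strands occurred in 2 of the 38. The CCAAT box (CCAAT, both strands) stood in 20 of the 38 (52.6%) and in 34.61% of all promoters. A match is a run of letters and not a measured binding site.

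The stretches below are shown for 6 genes with a match whose levels are described later, with the E2F words in capitals, and for CCNE1, which passed a test described later and has no match in its window. All run 5′ to 3′ on the strand of the gene, upstream of its start.
E2F2 (chr1:23531234-23531303, minus strand): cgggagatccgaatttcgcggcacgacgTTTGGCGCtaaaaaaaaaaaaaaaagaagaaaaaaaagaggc
CDC25A (chr3:48188418-48188487, minus strand): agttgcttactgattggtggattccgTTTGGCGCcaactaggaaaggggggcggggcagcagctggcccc
MCM6 (chr2:135876514-135876608, minus strand): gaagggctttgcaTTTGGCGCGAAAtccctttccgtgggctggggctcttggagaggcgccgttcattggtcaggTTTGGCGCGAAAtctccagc
GINS2 (chr16:85688955-85689014, minus strand): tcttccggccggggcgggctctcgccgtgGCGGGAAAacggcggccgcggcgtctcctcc
PCNA (chr20:5126653-5126712, minus strand): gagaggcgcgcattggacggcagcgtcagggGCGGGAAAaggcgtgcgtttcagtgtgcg
POLA1 (chrX:24693758-24693817, plus strand): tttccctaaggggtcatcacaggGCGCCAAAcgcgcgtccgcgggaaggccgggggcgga
CCNE1 (chr19:29811911-29811990, plus strand): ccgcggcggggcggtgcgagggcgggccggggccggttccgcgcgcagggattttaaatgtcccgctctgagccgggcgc
MCM6, a subunit of the replicative helicase, carries the same 12 letters in 2 places, each read as TTTGGCGC on the gene's strand and TTTCGCGC on the other. E2F2 and CDC25A share TTTGGCGC on the gene's strand. On the other strand, POLA1 holds TTTGGCGC, and GINS2 and PCNA hold TTTCCCGC.

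The arrays numbered 3 stood apart from the other 4, and every result below is read with that in view. They correlated at 0.793 to 0.833 with the arrays numbered 1 and 2, which correlated at 0.932 to 0.984 with each other. Of 12 markers of hepatocytes and liver cancer, 12 were detected on each array numbered 1 or 2 and 7 on each numbered 3, with a summed level of 110100 to 206166 against 35768 to 39430. The oncofetal marker GPC3 was at 13.82 to 14.29 on the 4 arrays and at 4.83 and 4.84 on the arrays numbered 3, where it was not detected, while ALB was at 8.98 to 9.89 and at 14.05 and 14.43. Summed levels of 10 blood cell markers were 2653 to 3367 against 22596 and 29376, with PTPRC, which defines leukocytes, not detected on any of the 6 arrays. For 8 fibroblast and stellate cell markers they were 630 to 1076 against 7942 and 8894, and for 6 endothelial markers 448 to 881 against 210 and 215. The part of these differences in the results was not tested.

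Most of the S phase genes were at lower levels on the arrays numbered 3, in control and sorafenib cells alike. Both arrays numbered 3 lay below all 4 others for 32 of the 40 tested members (80.0%), against 29.8% of all tested symbols, and above them for 2, CCND1 and CCND3, against 24.4%. The median difference of level between the arrays numbered 3 and the other 4 was −1.63 over the members and −0.01 over all tested symbols. The shift was not particular to the members. Of 27 tested G2/M and mitosis genes, 15 lay below (55.6%) and 0 above, with a median of −1.1. Of 45 tested other pathway genes, 23 lay below (51.1%) and 5 above, with a median of −0.94. By class of members the median was −0.93 for cyclins, CDKs and E2F, −1.98 for origin licensing, −1.78 for the fork, −2.19 for nucleotide supply and −2.05 for chromatin assembly. The farthest below were CDC45L (CDC45, which joins the helicase at firing origins) at −4.14, E2F2 at −4.11 and CDT1, which loads the MCM helicase, at −4.09. Both D-type cyclins ran the other way, CCND1 at 2.34 and CCND3 at 3.32 above. CDC25A, MCM7, MCM10, RRM2 and CHAF1A were detected on all 4 arrays numbered 1 and 2 and on neither numbered 3, by their detection p. Except for MCM7, their differences in pair 3 are thus between signals below detection. The signals of MCM7 there were 807.6 and 895.1, above the estimated background means of 139.3 and 139 in spite of its detection p. Those of the other 4 genes were at most 175.1. These are values of 2 arrays against 4, with no test.

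**Figure D1:**
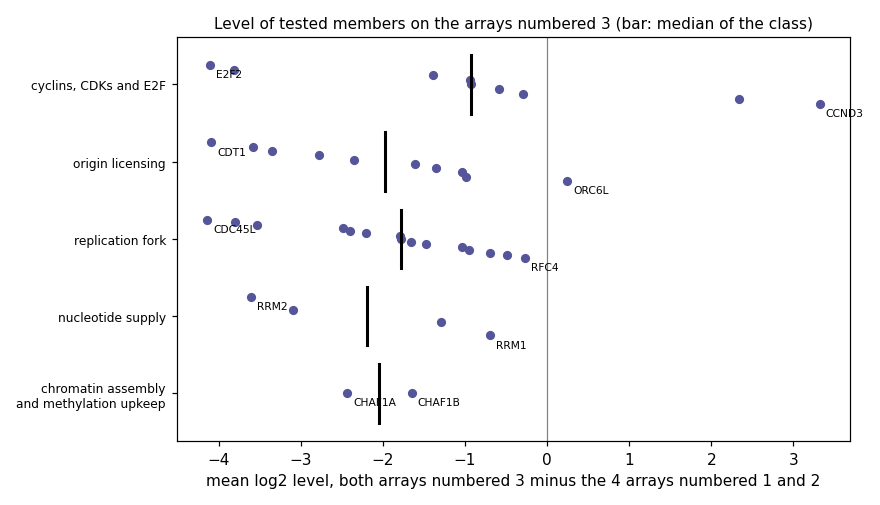
Mean log2 level of each tested member on both arrays numbered 3 minus its mean on the 4 arrays numbered 1 and 2, by class; points are genes, bars are class medians, and the lowest and highest gene of each class are named. Most points lie below 0, with class medians from −2.19 to −0.93, and CCND3 lies highest at 3.32.

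With all 6 arrays, 0 of the 40 tested members passed in limma with the group alone, and 0 of all 14641 symbols did (0.0%), with 310 symbols (2.12%) and 0 members at an unadjusted p under 0.05. With the replicate number as a block the counts were again 0 and 0 (0.0%), with 2777 symbols at an unadjusted p under 0.05. In that fit 9 members were lower at an unadjusted p under 0.05 (22.5%, against 10% of all tested symbols) and 0 were higher (against 8.95%). The fit with the block, a variance trend and robust estimation called 141 symbols (0.963%) and 0 members, the nearest being POLA1 (adjusted p = 0.0543). Groups of 3 arrays that do not overlap were found for 0 tested members, against 3.25% of symbols lower and 3.22% higher.

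The members were lower after sorafenib in pair 1, less so in pair 2 and about level in pair 3. Their median difference was −0.77, −0.22 and 0.03 in pairs 1, 2 and 3, with 37, 25 and 19 of 40 members lower, while the median of all tested symbols was 0.0, 0.0 and −0.01. Lower in all 3 pairs were 14 of 40 members (35.0%, against 22.2% of all tested symbols), and higher in all 3 was 1 (2.5%, against 21.5%). The 14 include CDC25A, MCM10, RRM2 and CHAF1A, whose signals in pair 3 were below detection. They also include CCND1, ORC6L, GINS3 and E2F2, at −0.03, −0.02, −0.01 and −0.08 in pair 3. In pairs 1 and 2 alone, 23 were lower in both (57.5%, against 32.6%) and 1 was higher in both (against 32.9%). Over all 3 pairs the median was −0.24, and −0.0 for all tested symbols. For the 16 tested members with an E2F word the median was −0.40 over the pairs, and −0.83, −0.21 and −0.02 in each. For the 19 with a promoter entry but no word it was −0.19, and −0.45, −0.35 and 0.15 in each, a difference that was not tested.

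**Figure D2:**
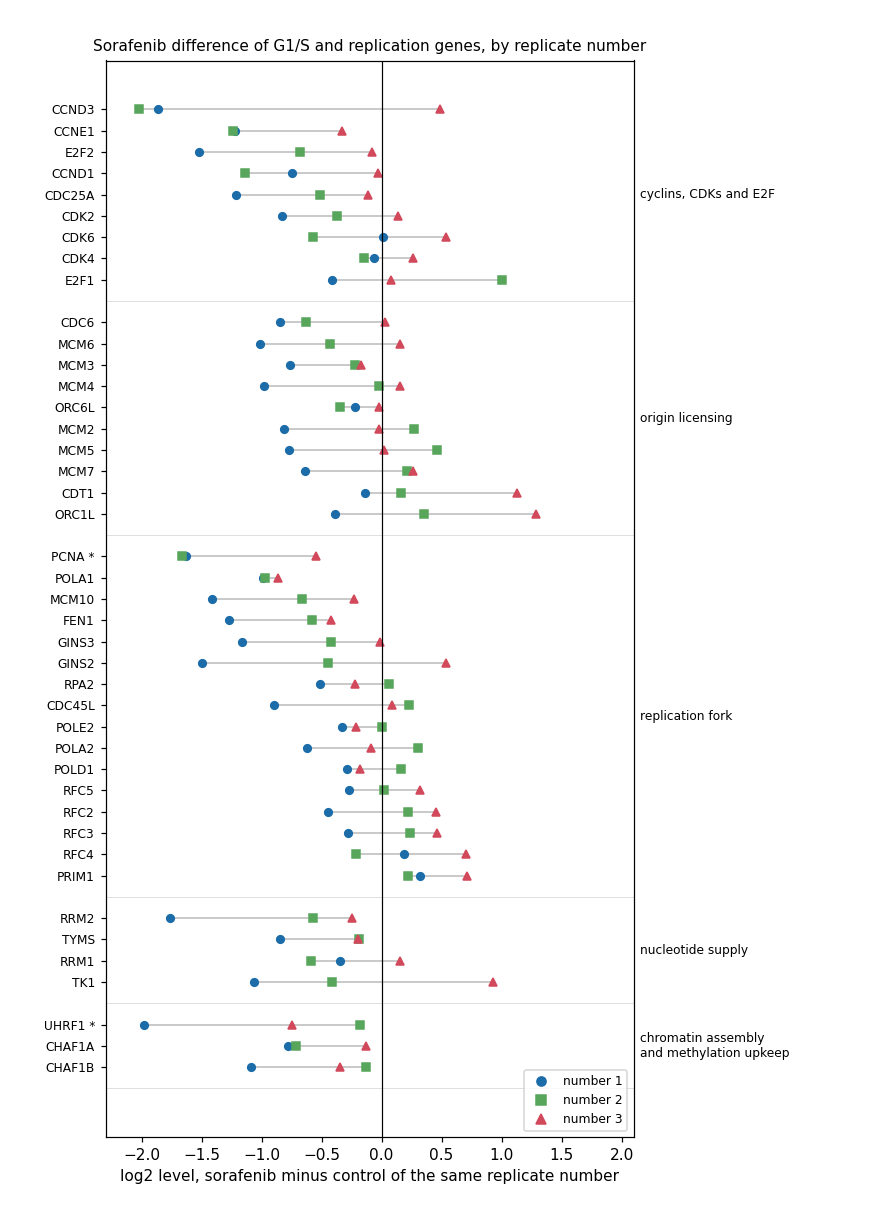
Log2 difference, sorafenib minus control, of each member in pairs 1 (circles), 2 (squares) and 3 (triangles), by class; grey lines span the 3 pairs, and an asterisk marks the 2 bright genes that did not pass the detection filter. Pair 1 lies left of 0 for 37 of the 40 tested members, and pair 3 is spread around 0.

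Without the arrays numbered 3 and with the replicate block, 320 symbols passed (2.19%), 149 lower (1.02%) and 171 higher (1.17%), and 2 of the 40 members fell (5.0%) while 0 rose. Both were cyclins, CCND3 and CCNE1. This 2-against-2 fit was planned, but as an alternative, run with the difference of the arrays numbered 3 known, and it leaves each symbol 1 residual degree of freedom. In it 17 members were lower at an unadjusted p under 0.05 (42.5%, against 10.5% of all tested symbols) and 0 were higher (against 9.54%). The call count depended on the processing: 0 members passed with a background drawn from all symbols or with no detection filter, while more passed in the settings that called more symbols. All were lower: 10 members with an offset of 50 (25%, against 2.77% of all tested symbols called lower), 13 without background correction (32.5%, against 3.41%) and 15 with trend and robust estimation (37.5%, against 5.01%).

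The 9 tested genes of the class of cyclins, CDKs and E2F had a median of −0.61, and of −0.83, −0.57 and 0.08 in pairs 1, 2 and 3; it was −0.22 with the background from all symbols. CCND3, a D-type cyclin that activates CDK4 and CDK6, had log2 levels of 9.39, 9.42 and 11.51 on control arrays 1, 2 and 3 and 7.53, 7.40 and 12 on the sorafenib arrays. Its deposited signals were 848.3, 784 and 3035 in control and 303.4, 260.9 and 4100 with sorafenib. It was thus lower in pairs 1 and 2, at −1.86 and −2.02, and higher in pair 3, at 0.49. Over pairs 1 and 2 CCND3 fell by 1.94 (SE 0.217, 3.84-fold; limma, adjusted p = 0.0154). Over the 7 alternatives of that fit its adjusted p ran from 2.55e-06 to 0.243. Over all 3 pairs it differed by −1.13 ± 1.41, and by −0.04 with the background from all symbols.

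CCNE1, the E-type cyclin that drives CDK2 at the entry to S phase, was at 9.66, 9.22 and 7.60 in control and 8.45, 7.98 and 7.27 with sorafenib. All 3 pairs were lower, by −1.22, −1.24 and −0.33, although the groups overlapped because array 3 of the controls was low. Over pairs 1 and 2 CCNE1 fell by 1.23 (SE 0.215, 2.35-fold; limma, adjusted p = 0.0315, with 0.00119 to 0.298 over the 7 alternatives), and over all pairs it differed by −0.93 ± 0.52 (adjusted p = 0.133 in limma with the block), and by −0.23 with the background from all symbols. CCND1, the main D-type cyclin, was at 13.43, 13.45 and 15.33 in control and 12.68, 12.31 and 15.30 with sorafenib. Its pairs differed by −0.75, −1.14 and −0.03, so that only the arrays numbered 1 and 2 separated (adjusted p = 0.0621 in limma on those pairs with the block).

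The CDKs had mean differences between −0.35 and 0.02. CDK4 was at 13.60, 13.39 and 12.38 in control and 13.54, 13.24 and 12.64 with sorafenib, a difference of 0.02 ± 0.21 whose sign turned to −0.01 with median scaling. CDK6 was at 10.70, 10.32 and 9.80 against 10.71, 9.75 and 10.34, and its pairs went both ways, at 0.01, −0.57 and 0.54. CDK2, the partner of cyclin E, was at 11.17, 11.26 and 9.90 against 10.34, 10.89 and 10.04, lower in pairs 1 and 2 by −0.83 and −0.37 and higher in pair 3 by 0.14. None of the 3 kinases passed in any fit that was run.

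CDC25A, the phosphatase that activates CDK2, was at 9.76, 9.77 and 5.58 in control and 8.55, 9.26 and 5.48 with sorafenib. It was lower in each pair, at −1.21, −0.51 and −0.11, the last below detection (adjusted p = 0.0958 in limma on pairs 1 and 2 with the block). E2F2 was at 11.33, 11 and 6.55 against 9.81, 10.32 and 6.47, with differences of −1.52, −0.68 and −0.08 (adjusted p = 0.0594 in the same fit). E2F1, which shares its role as an activator, instead went both ways, at −0.41, 1.00 and 0.08. CCND2 was not detected on any array, at 5.05 to 5.32. Neither was CCNE2 by its detection p, though its deposited signal was 240.9 and 189.7 on control arrays 1 and 2 and 117.3 and 114.3 on the sorafenib arrays of those numbers. E2F8, an atypical E2F that represses E2F targets, was detected on 1 array, control array 1.

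**Figure D3:**
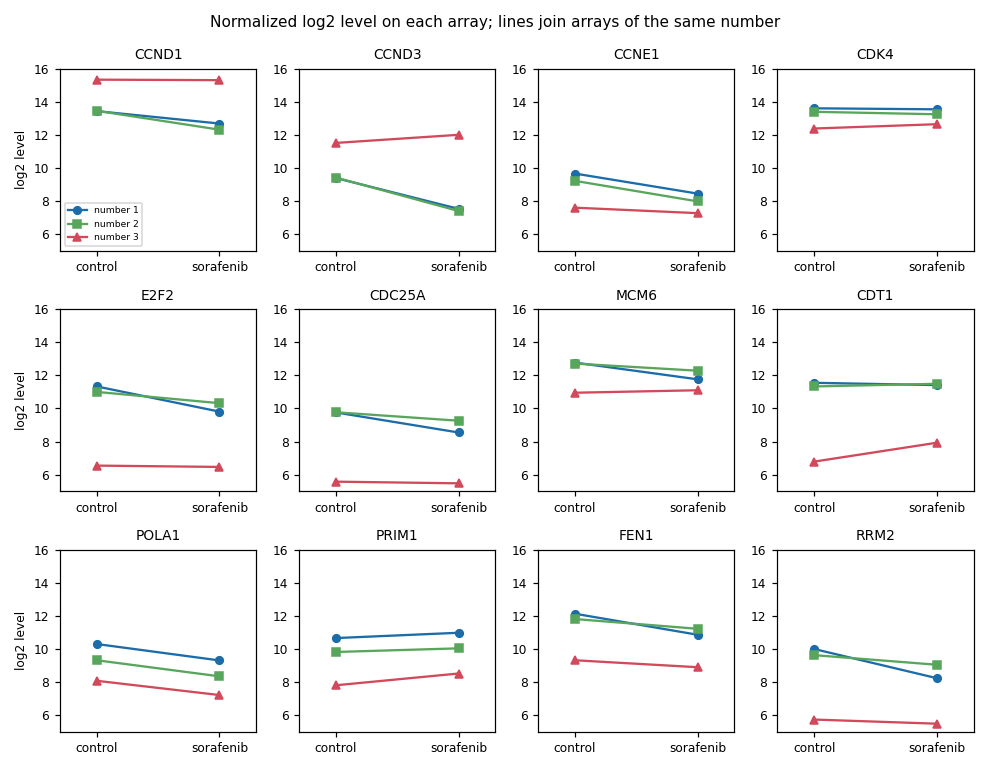
Normalized log2 level of 12 members on each of the 6 arrays; lines join the control and the sorafenib array of the same number (1 circles, 2 squares, 3 triangles). CCND3 slopes down in pairs 1 and 2 and up in pair 3, POLA1 slopes down and PRIM1 up in all 3, and E2F2, CDC25A and RRM2 are low on the arrays numbered 3.

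Origin licensing differed between the pairs. All 10 genes were tested, and their median was −0.76, 0.07 and 0.09 in pairs 1, 2 and 3, with 10, 5 and 3 genes lower. Of the 6 subunits of the MCM helicase, MCM6 was at 12.77, 12.71 and 10.95 in control and 11.76, 12.28 and 11.10 with sorafenib. MCM3 was at 12.89, 12.90 and 11.12 against 12.13, 12.68 and 10.96, and it was the subunit lower in all 3 pairs, at −0.76, −0.22 and −0.17. The differences of MCM2, MCM4, MCM5 and MCM7 were −0.81, −0.98, −0.77 and −0.64 in pair 1. In pair 2 they were 0.27, −0.02, 0.46 and 0.21, and in pair 3 −0.02, 0.15, 0.02 and 0.26. MCM7 was not detected in pair 3 by its detection p, in spite of its signals. The 6 subunits thus lay between −1.01 and −0.64 in pair 1 and on both sides of 0 in the other pairs.

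The factors that load the helicase did not move as 1 group. ORC1L (ORC1), the largest subunit of the origin recognition complex, was at 9.04, 8.75 and 5.46 in control and 8.65, 9.10 and 6.75 with sorafenib, with differences of −0.39, 0.35 and 1.29, control array 3 being below detection. CDT1 was at 11.55, 11.33 and 6.79 against 11.41, 11.49 and 7.93, within 0.16 in pairs 1 and 2 and 1.13 higher in pair 3. CDC6, the ATPase that works with CDT1, was lower in pairs 1 and 2, at −0.85 and −0.63, from a level near background, and was detected on 3 of 6 arrays. ORC6L (ORC6) was at 13.48, 13.94 and 13.82 against 13.25, 13.59 and 13.80, lower in each pair by at most 0.35. The highest and lowest licensing genes over all pairs were ORC1L at 0.42 ± 0.84 and CDC6 at −0.48 ± 0.46, and 0 of the 10 passed with all arrays. On pairs 1 and 2 with the block they did not pass either, but MCM6 did without background correction and MCM3 and MCM6 did with trend and robust estimation.

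At the fork, the subunits of the polymerase alpha and primase complex, which starts each DNA strand, went different ways. POLA1, its catalytic subunit, was at 10.30, 9.32 and 8.08 in control and 9.31, 8.35 and 7.22 with sorafenib. The 3 pairs were close together, at −0.99, −0.97 and −0.86 (mean −0.94 ± 0.07), and in limma with the block its adjusted p of 0.101 was the lowest of the members and was not past the threshold. PRIM1, the catalytic primase subunit, was at 10.66, 9.82 and 7.81 against 10.98, 10.04 and 8.52. It was the member higher in all 3 pairs, at 0.32, 0.22 and 0.71 (adjusted p = 0.264 with the block). POLA2, the accessory subunit, went both ways, at −0.62, 0.30 and −0.09. The other primase subunit, PRIM2, is not a member and had 2 rows. The row PRIM2 was detected on all 6 arrays and was higher in each pair, at 0.64, 1.14 and 0.26 (adjusted p = 0.176 in limma with the block). The row under the older symbol PRIM2A was not detected on any array and went both ways, at −0.23, 0.22 and −0.11. These subunits share 1 complex, but the difference between POLA1 and PRIM1 was not tested.

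PCNA, the sliding clamp, differed by −1.28 ± 0.63 and did not pass the detection filter. Its deposited signals were 1315, 3041 and 1143 in control and 515.7, 915.4 and 784.2 with sorafenib. Its log2 levels were 10.11, 11.59 and 9.98 against 8.49, 9.93 and 9.43, with differences of −1.63, −1.66 and −0.55. All 3 sorafenib arrays thus lay below all 3 controls, as they did for 3.25% of the tested symbols. The nearest levels were 9.98 on control array 3 and 9.93 on sorafenib array 2. The detection p was under 0.05 on 1 array in spite of these signals, and likewise for UHRF1. With a filter on signal in place of detection (log2 of at least 6 on at least 3 arrays), 14701 symbols were tested. With all 6 arrays PCNA did not pass (adjusted p = 0.0509 in limma with the block, trend and robust estimation). On pairs 1 and 2 with the block PCNA then fell by 1.64 (SE 0.218, 3.12-fold; limma, adjusted p = 0.0181), where 1.17% of symbols were called lower and 1.38% higher. That combination was chosen after the values were seen, and with no filter at all its adjusted p was 0.174.

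FEN1, the flap endonuclease that trims Okazaki fragments, was at 12.13, 11.81 and 9.32 in control and 10.86, 11.22 and 8.90 with sorafenib. It was lower in each pair, at −1.27, −0.58 and −0.42 (adjusted p = 0.157 in limma with the block). MCM10, which helps the helicase to fire, was at 9.65, 10.21 and 5.73 against 8.24, 9.55 and 5.50. Its differences were −1.41, −0.66 and −0.23, the last below detection. Of the GINS subunits of the active helicase, GINS3 was at 9.91, 9.46 and 8.25 against 8.75, 9.05 and 8.24, with differences of −1.16, −0.42 and −0.01. GINS2 was at 10.82, 10.71 and 6.48 against 9.33, 10.25 and 7.02, lower in pairs 1 and 2 and 0.54 higher in pair 3. GINS1 was detected on 1 array and was not tested.

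The members of the clamp loader and of polymerases delta and epsilon had mean differences between −0.18 and 0.23. RFC2, RFC3 and RFC5, small subunits of the loader that places PCNA on DNA, lay within 0.46 of 0 in every pair. RFC4 differed by 0.19, −0.21 and 0.70. POLD1 and POLE2, subunits of polymerases delta and epsilon, had means of −0.11 ± 0.24 and −0.18 ± 0.17. RPA2, of the protein that coats single-stranded DNA, differed by −0.22 ± 0.28, and CDC45L by −0.90, 0.23 and 0.09. Over the 15 tested fork genes the pair medians were −0.51, 0.02 and −0.01, with 4 lower and 1 higher in all 3 pairs.

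The 4 enzymes of nucleotide supply were all lower in pairs 1 and 2. RRM2, the regulated subunit of ribonucleotide reductase, was at 10, 9.63 and 5.74 in control and 8.24, 9.05 and 5.49 with sorafenib, with differences of −1.76, −0.57 and −0.25, the last below detection (adjusted p = 0.0695 in limma on pairs 1 and 2 with the block). TYMS, which makes thymidylate, was at 12.12, 12.28 and 8.95 against 11.28, 12.09 and 8.75, lower in each pair by −0.85, −0.19 and −0.20. TK1, the thymidine salvage kinase, was at 10.17, 10.43 and 8.18 against 9.11, 10.02 and 9.11. It was lower in pairs 1 and 2, at −1.06 and −0.41, and higher in pair 3, at 0.93. RRM1, the large reductase subunit, was at 12.71, 12.90 and 11.79 against 12.36, 12.31 and 11.94, with differences of −0.35, −0.59 and 0.15. The class medians were −0.95, −0.49 and −0.02.

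The 2 tested members of chromatin assembly were lower in every pair, as was UHRF1. For CHAF1A the signals in pair 3 were below detection. Of 5 further chromatin genes tested, 5, 5 and 1 were lower in pairs 1, 2 and 3, with medians of −0.45, −0.19 and 0.23. CHAF1A, a subunit of the factor that places histones behind the fork, was at 8.41, 7.94 and 5.42 in control and 7.64, 7.23 and 5.30 with sorafenib. Its partner CHAF1B was at 9.49, 9.43 and 7.68 against 8.40, 9.30 and 7.33. Their differences were −0.78, −0.71 and −0.13, and −1.09, −0.13 and −0.35 (adjusted p = 0.215 and 0.268 in limma with the block). UHRF1, which brings DNA methylation to new strands, had signals of 2242, 2418 and 426.4 against 667.6, 1881 and 291.7. Its differences were −1.98, −0.18 and −0.75, without a test under the detection filter, and its adjusted p was 0.134 on pairs 1 and 2 with the block and the signal filter.

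Other genes of the pathway, 54 further symbols of RB and E2F, licensing, fork, nucleotide and chromatin genes, lay closer to 0. Of the 45 tested, 0 passed with all arrays in the fits above, and without the arrays numbered 3 and with the block 1 fell (2.22%, against 1.02% of all tested symbols) and 0 rose. The median of the 45 was −0.09 overall and −0.25, −0.11 and 0.01 by pair. In all 3 pairs 12 of them lay below 0 (26.7%, against 22.2% of all tested symbols) and 5 above (11.1%, against 21.5%). E2F7, an atypical repressor of E2F targets, was the 1 that fell, at −1.62 and −1.37 in pairs 1 and 2 (adjusted p = 0.0265 in limma), and it was at 1.32 in pair 3. The largest mean differences that held in all pairs were CTPS (CTPS1), which makes CTP, at −0.85 ± 0.55, and CDC7, the kinase that fires licensed origins, at −0.80 ± 0.09. TFDP1, the DNA-binding partner of E2F factors, was at −0.81, −0.72 and −0.69, and it was named after its values were seen.

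Genes of G2/M and mitosis, which act after replication, had another pattern over the pairs. Their 27 tested genes had pair medians of −0.09, 0.14 and 1.21, where the G1/S and replication genes had −0.77, −0.22 and 0.03, and in pair 3 all 27 were higher. Without the arrays numbered 3 and with the block, MKI67 and CENPE fell, at −1.18 and −1.53 and at −1.17 and −1.61 in pairs 1 and 2 (adjusted p = 0.0283 each in limma), with 1.10 and 1.40 in pair 3. The largest mean differences that held in all pairs were those of the mitotic kinases NEK2, at 1.05 ± 0.73, and PLK1, at 0.87 ± 1.00, neither past the threshold with all arrays (adjusted p = 0.145 and 0.255 in limma with the block). The difference between the 2 lists was not tested. Among CDK inhibitors 3 of 7 passed the detection filter. Without the arrays numbered 3 and with the block, CDKN2B (p15) fell (adjusted p = 0.0395 in limma, and 0.137 with all arrays and the block), with −0.95, −1.32 and −0.34 in pairs 1, 2 and 3. CDKN1B (p27) was higher in each pair, at 0.72, 0.83 and 0.45, and did not pass (adjusted p = 0.093 and 0.137 in those fits), and CDKN1C (p57) differed by −0.01 ± 0.11. CDKN1A (p21) was not detected on any array by its detection p, although its deposited signals were 1024, 309.9 and 2974 in control and 408.3, 162.9 and 4041 with sorafenib. With the signal filter on pairs 1 and 2 and the block CDKN1A fell by 1.77 (SE 0.225, 3.42-fold; limma, adjusted p = 0.0171), with −1.60 and −1.95 in those pairs and 0.50 in pair 3. In bulk RNA, fewer cells in a phase and less RNA per cell cannot be told apart.

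**Figure D4:**
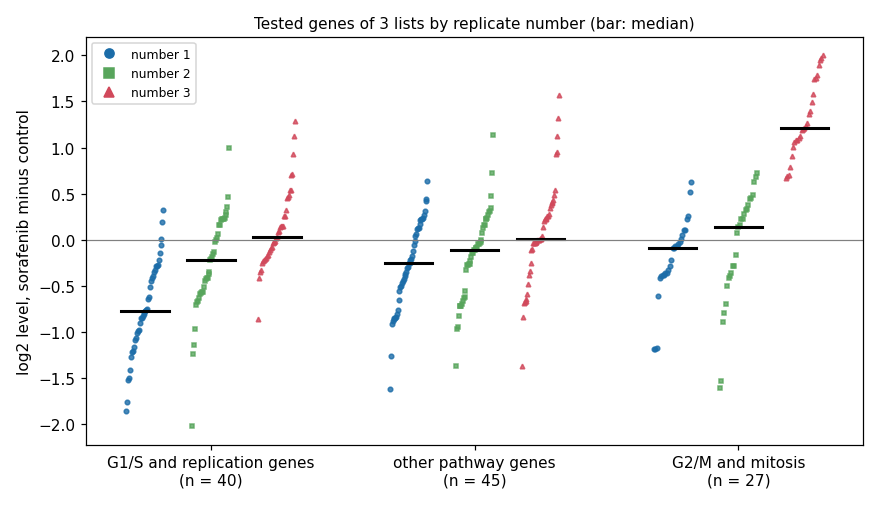
Log2 difference, sorafenib minus control, of every tested gene of 3 lists in pairs 1 (circles), 2 (squares) and 3 (triangles); points are genes in rank order and bars are medians. The G1/S and replication genes have medians of −0.77, −0.22 and 0.03, and the G2/M genes −0.09, 0.14 and 1.21.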

How the data were processed

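The deposited tables gave 1 non-normalized BeadChip intensity and 1 detection p-value per gene symbol and array, per the file headers; how probes were combined is not given in the sources used here. A deposited table of log2 values was not used: its sorafenib columns held values for 59 symbols, which followed the signals of their own symbols with a Spearman rho of only 0.0468 to 0.1202. Intensities of both groups were background-corrected together with limma 3.58.1 (R 4.3.3; normexp, offset 16), with the background taken from the 27247 symbols whose detection p-values were whole multiples of 1 in 770 (tolerance 0.001), then quantile-normalized and brought to log2. That restriction of the background was made with earlier values known, and the estimate from all symbols is an alternative. Medians of the raw signal were 134 to 170.6 intensity units per array, and 13195 to 15227 symbols were detected per array; the number of arrays limits the precision.

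Groups were compared with limma's moderated test (two-sided, Benjamini-Hochberg over all tested symbols, threshold 0.05), with the group alone as planned. Deviations from the group means correlated at 0.904, 0.791 and 0.926 between arrays of the same number. Each group mean includes the distant array 3, so these values cannot show whether numbers 1 and 2 pair the samples. Levels of control and sorafenib arrays correlated at 0.984 and 0.966 within numbers 1 and 2, and at 0.932 and 0.947 across them. The labels do not say that a number marks a shared culture, and the replicate block is given too. Only the limma fits were run on simulated log2 values. Background correction, normalization and the detection filter were not tested in that way. Per-array values are given for tested members moving 1 way in all pairs or past the threshold in any fit, and for the cyclins and CDKs; some other members got them after their values were seen. Other members have their pair differences or range. Genes of other lists were to be named when past the threshold in any fit or as the 2 largest differences that held in all pairs. TFDP1, PRIM2 with its second row, CDKN1C and the cell type markers were named without regard to that rule. The members and lists were chosen with earlier results of these data known. Probe positions were not used here.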

Additional observations from a re-analysis of the deposited data

How the results depend on the processing

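Calls depended on the fit. With limma the number of symbols called was 0 in the planned fit. It was 141 with the replicate block, trend and robust estimation, 180 with these and the signal filter, and 0 to 320 without replicate 1, 2 or 3, the 320 being without replicate 3 with the replicate block. Members called were 0 in each of these except the last, where they were 2. That fit gave 0 symbols and 0 members with the background from all symbols and with no detection filter, 832 and 10 with an offset of 50, 1000 and 13 without background correction, and 1375 and 15 with trend and robust estimation. Background estimated from all symbols had an SD of 604 to 837.2 intensity units, against 20.1 to 31.79 from the 27247 symbols used otherwise. With the background from all symbols, the difference on pairs 1 and 2 was −0.40 for CCND3 and −0.34 for CCNE1.

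With 1 array left out, the members' median of −0.24 ran from −0.90 (control array 3 out) to 0.21 (sorafenib array 3 out), with 0.09 and 0.03 when control array 1 or 2 was out; without replicate 1, 2 or 3 it was −0.09, −0.38 and −0.48. Leaving out replicates in turn gave −0.39 to 0.09 for origin licensing and −0.35 to 0.04 for the fork, each positive value without replicate 1, with or without the replicate block. It gave −0.86 to −0.31 for cyclins, CDKs and E2F, −0.63 to −0.21 for nucleotide supply and −0.68 to −0.33 for chromatin assembly. With the background from all symbols chromatin assembly was at −0.10 (−0.53 otherwise), cyclins, CDKs and E2F at −0.22 (−0.61) and the fork at −0.10 (−0.18). With array weights the members were at −0.52, origin licensing at −0.33 (−0.19) and nucleotide supply at −0.67 (−0.34). The counts of members lower (14 to 17) and higher (1) in all pairs stayed close under the normalizations and filters tried. Of 559 alternative values of 40 single members, 526 kept their direction and side of the threshold, 31 changed sign and 2 (CCND3 and CCNE1) passed. That count does not measure robustness. No member passed in the planned fit, and settings such as the block and the filters leave a difference unchanged by construction. The fits with 1 array left out are not among these values.

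Ranges that crossed 0 without 1 replicate are given by the one that turned the sign. Replicate 1 did so for MCM2 (−0.42 to 0.13), MCM4 (−0.50 to 0.06), MCM5 (−0.37 to 0.24), MCM7 (−0.22 to 0.23), CDC45L (−0.41 to 0.16), GINS2 (−0.98 to 0.04), POLA2 (−0.35 to 0.10) and TK1 (−0.73 to 0.26). Replicate 2 did so for CDK6 (−0.28 to 0.27) and E2F1 (−0.17 to 0.54). Replicate 3 did so for CDK4 (−0.10 to 0.10), ORC1L (−0.02 to 0.82), RFC2 (−0.11 to 0.34), RFC3 (−0.02 to 0.35), RFC4 (−0.01 to 0.45) and RFC5 (−0.13 to 0.17). With array weights CDK4 was at −0.09, CDT1 at −0.08, RFC2 at −0.10, RFC3 at −0.02 and RFC5 at −0.14. With median scaling CDK4 was at −0.01, RFC2 at −0.01 and RFC5 at −0.03, and with the background from all symbols RFC5 was at −0.01. The cause was not tested. The block alone changed no call with all arrays.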
